A study of Mus musculus with 20 samples.

Results

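The respiratory chain genes described here were the rows of the count table whose symbol starts with mt-, Nduf, Sdha, Sdhb, Sdhc, Sdhd, Uqcr, Cox4, Cox5, Cox6, Cox7, Cox8 or Atp5, together with Cyc1 and Cycs. The rule used symbols alone and no measured value, but it was set with earlier results of these data known. They were 111 of the 21963 rows, with 13 rows encoded by mitochondrial DNA (the mt- rows) and 98 encoded in the nucleus. After a filter on low counts, 12 mt- and 93 nuclear members were tested among 11707 genes. The members left untested were mt-Nd4l, with 1 to 9 counts per library, Cox8b and Cox8c, with 0 counts in every library, and Cox7b2, Ndufa4l2 and Cox6b2, whose highest counts in any library were 1, 5 and 7.

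The respiratory chain carries electrons from NADH (complex I) and succinate (complex II) through complex III and cytochrome c to oxygen at complex IV, and complex V uses the resulting proton gradient to make ATP. Complexes I, III, IV and V are built from subunits of both genomes, whereas complex II is made by nuclear genes alone. Mitochondrial DNA is transcribed into long precursors from each of its strands, which are then cut into messengers, and mt-Nd6 is the protein gene that lies on the strand opposite to all the others. Macrophages given a microbial stimulus are known for a shift from oxidative phosphorylation to glycolysis and for making itaconate, an inhibitor of complex II.

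The series holds 20 RNA-seq libraries of bone marrow-derived macrophages (BMDMs), which were grown from the marrow of mice of both sexes that were between 15 and 25 weeks old. WT BMDMs (C57BL/6 mice) were left untreated (4 libraries), stimulated for 3 h with zymosan at 2 particles per cell (5 libraries), or stimulated in the same way after loading with 10 uM BAPTA-AM, a chelator that enters cells and binds Ca2+ (4 libraries). Mcu-/- BMDMs came from floxed Mcu mice carrying Cx3cr1-cre, a driver active in myeloid cells, and were left untreated (4 libraries) or given zymosan for 3 h (3 libraries). Mcu encodes the pore of the mitochondrial calcium uniporter. The labels call the libraries biological replicates without saying whether each came from its own mouse, so p-values measure the spread between libraries.

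The depth of a library ranged from 14420402 to 23954552 counts. Levels are given as CPM (gene counts scaled to library size) after TMM scaling, in which libraries are set level over the bulk of their genes. Mcu stood at 6.10 to 9.55 CPM in the 13 WT libraries and at 2.63 to 4.05 CPM in the 7 Mcu-/- libraries, without overlap, and gene-level counts cannot tell whether the remaining reads came from undeleted exons. All 8 macrophage markers were detected, summing to between 8556 and 16393 CPM in every library, while the 3 T cell markers in the table summed to at most 0.0853 CPM and the 7 neutrophil markers to at most 5.27 CPM. Mcu-/- untreated replicate 4 stood apart from the other 3 untreated Mcu-/- libraries. It held 971 CPM of the macrophage marker Cd68 against 251 to 259 CPM, and 238 CPM of the integrin Itgam against 734 to 777 CPM. Its fibroblast markers summed to 25.3 CPM, and those of the 3 Mcu-/- zymosan libraries summed to 40.5 to 49.3 CPM, against at most 5.1 CPM in any WT library. The collagens Col1a1 and Col1a2 made up nearly all of that sum, and Lum was at 0. With this library in the fit the common biological coefficient of variation was 12.4%, and without it 3.56%, so results are given with and without it.

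The mt- rows fell into a high and a low set by count, as a property of the table. The rows mt-Nd1, mt-Nd2, mt-Co1, mt-Nd4, mt-Nd5, mt-Nd6 and mt-Cytb averaged 3660 to 145287 counts per library, and the other 6 averaged 4 to 160 counts. Per length of gene, in CPM per kb, untreated WT libraries held 4539 of mt-Co1, the catalytic subunit of complex IV, 1354 of the complex I subunit mt-Nd1, 879 of mt-Cytb, the complex III subunit, and 369 each of mt-Nd4 and mt-Nd6. The nuclear members with the most reads per length were Cox6a1 at 197 and Cox8a at 193 CPM per kb, both complex IV subunits, followed by Cox4i1 at 187.

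Most of the low set has a near-identical copy in the nuclear genome. In GENCODE M21 (mm10), mt-Co2, mt-Atp6, mt-Co3, mt-Nd3 and mt-Nd4l each had a nuclear copy with at least 98% identity over more than 90% of their length, all of them on chr1 between 24612407 and 24615565. Of the low rows only mt-Atp8 lacked such a copy over most of its length among annotated transcripts, with 21.1% of its bases covered. Sequence outside annotated transcripts was not searched. On chrM mt-Atp8 starts between mt-Co2 and mt-Atp6, whose copies lie side by side at chr1:24614885-24615565 and chr1:24613974-24614651. The row mt-Nd4, in the high set, had 63.6% covered. mt-Co1, the row with the most counts, had 31.3% covered, and its nearest copy, Gm13340, spanned 100% of its length at 97.6% identity. Both rows were kept among those with high counts, and whether their copies affected their counts was not tested. The nearest copy of mt-Cytb, by contrast, was Gm11410 on chromosome 4, with 92.9% identity. Both kinds of copy are shown over 90 bases each, 5′ to 3′ along the gene, with the bases that differ between a gene and its copy in capitals. The mt-Nd3 stretch is chrM:9459-9548 (plus strand) and its copy in Gm28438 is chr1:24613030-24613119 (minus strand), and the mt-Cytb stretch is chrM:14445-14534 (plus strand) and its copy in Gm11410 is chr4:80004289-80004378 (plus strand), all single-exon entries of mm10.
mt-Nd3: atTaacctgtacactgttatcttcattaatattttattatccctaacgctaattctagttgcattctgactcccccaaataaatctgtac
Gm28438: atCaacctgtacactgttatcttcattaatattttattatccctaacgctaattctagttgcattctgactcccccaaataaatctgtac
mt-Cytb: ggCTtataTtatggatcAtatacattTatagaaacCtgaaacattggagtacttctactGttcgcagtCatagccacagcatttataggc
Gm11410: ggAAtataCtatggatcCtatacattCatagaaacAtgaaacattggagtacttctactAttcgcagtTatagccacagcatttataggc
Counted from 1 at the first base of the gene, mt-Nd3 and its copy differed by T3C alone over these 90 bases, while mt-Cytb and its copy differed at 8 positions, among them C303A and T304A. Beyond that base, a read from the mt-Nd3 stretch matches both places equally well, whereas a read from the mt-Cytb stretch does not. Whether reads of the low rows were set aside as mapping to more than 1 place was not tested, and the values of mt-Co2, mt-Atp6, mt-Atp8, mt-Co3 and mt-Nd3 are treated as uncertain. Counts, medians and shares over the mt- rows include these uncertain rows, and the calls that fell on them are named where they occur.

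The mt- rows took a smaller share of counts in the Mcu-/- zymosan libraries and in Mcu-/- untreated replicate 4 than in the other 16 libraries. Their share of all counts was 1.55%, 1.31%, 1.28% and 1.55% in the 4 WT untreated libraries. It was 1.16%, 1.18%, 1.15%, 1.36% and 1.29% in WT zymosan, and 1.28%, 1.16%, 1.30% and 1.28% in BAPTA-AM loaded WT zymosan libraries. In Mcu-/- untreated libraries it was 1.30%, 1.40%, 1.48% and 0.555%, and in the 3 Mcu-/- zymosan libraries 0.527%, 0.499% and 0.621%. All 3 Mcu-/- zymosan libraries thus lay below every WT library, and Mcu-/- untreated replicate 4 lay among them rather than with its own group, whose other 3 libraries sat within the WT untreated range.

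The nuclear members, summed, also took a smaller share in the Mcu-/- zymosan libraries. They took 0.857% ± 0.022 of counts (SD, n = 4) in WT untreated, 0.679% ± 0.009 (n = 5) in WT zymosan, 0.699% ± 0.009 (n = 4) with BAPTA-AM, 0.821% ± 0.079 (n = 4) in Mcu-/- untreated and 0.590% ± 0.010 (n = 3) in Mcu-/- zymosan libraries. Without replicate 4 the Mcu-/- untreated mean was 0.861% ± 0.003 (n = 3), and replicate 4 itself stood at 0.703%. Each zymosan group lay below the untreated WT libraries in share, whatever its genotype. The ratio of summed mt- to summed nuclear CPM was 1.53 to 1.78 in WT untreated, 1.72 to 1.98 in WT zymosan, 1.69 to 1.87 with BAPTA-AM and 1.51 to 1.73 in Mcu-/- untreated replicates 1 to 3, against 0.789 in replicate 4 and 0.932 ± 0.119 (SD, n = 3) in Mcu-/- zymosan libraries. Class sums are a description and were not tested. In bulk RNA a smaller share of a transcript class can come from fewer cells carrying it, from less of it per cell or from more of other transcripts. These cannot be told apart here. Summed nuclear CPM after TMM scaling was 6984 ± 145 (SD, n = 4) in WT untreated and 7783 ± 108 (n = 5) in WT zymosan libraries, a rise where the share fell.

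**Figure D1:**
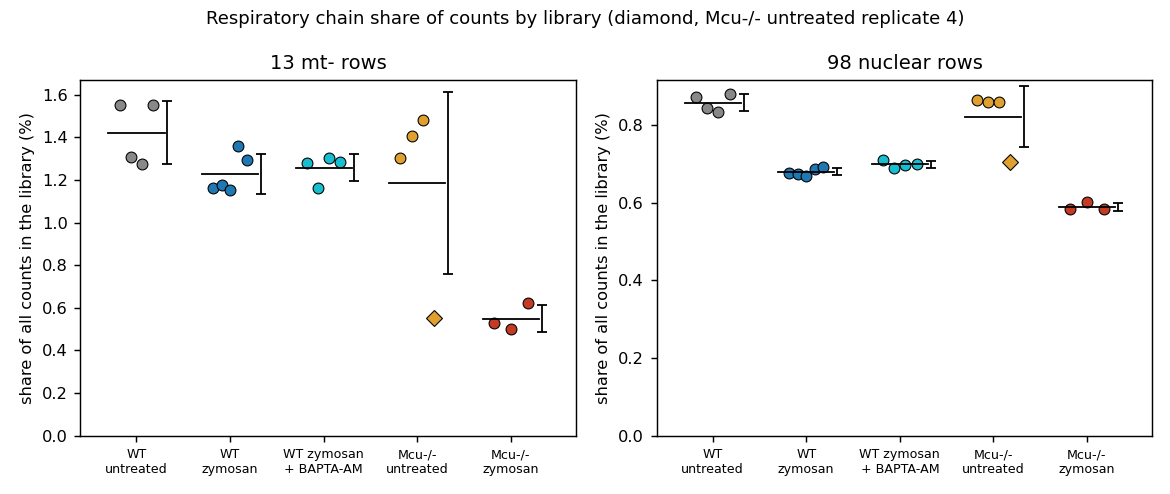
Share of all counts (%, y axis) taken by the 13 mt- rows (left) and the 98 nuclear respiratory chain rows (right) in each of the 20 libraries, by group (x axis). Each point is 1 library, the lines are group means, the bars are 1 SD, and the diamond at 0.555% and 0.703% is Mcu-/- untreated replicate 4, which lies nearer to the Mcu-/- zymosan libraries than to its own group for the mt- rows.

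Directions after zymosan depend on the scaling and are given relative to the other genes. TMM factors centred the fit so that the median gene changed by -0.04 on the log2 scale in WT, whereas scaling by library totals alone put the median gene at -0.54. In WT BMDMs under TMM scaling the nuclear members had a median log2 change of 0.10, which was 0.15 above the median of all genes under either scaling. Of 93 nuclear members, 32 were higher and 9 lower after zymosan (edgeR adjusted p under 0.05), where the background over all genes was 32.4% higher and 36.8% lower. With library totals, 0 were higher and 89 were lower. Rises below are therefore rises relative to the bulk of genes. Of the 192 single-gene results over all comparisons, 23 turned direction and were still called when library totals set the scale. A further 16 lost the call, whichever way they then pointed, and 153 kept both.

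In WT zymosan libraries the called subunits were mostly higher and the called assembly factors were all lower. Of the 81 structural members (complex subunits and cytochrome c), 32 were higher and 3 lower, while of the 8 complex I and 4 complex II assembly factors 0 were higher and 3 of each were lower. Beside the 32.4% of all genes higher and 36.8% lower, 3 of 81 subunits lower was under the background, while the 3 of 8 complex I assembly factors that were lower lay near the background. By complex, 9 of 15 complex IV, 7 of 16 complex V, 5 of 9 complex III, 2 of 4 complex II and 8 of 36 complex I subunits were higher, the last a smaller share than over all genes. The counts were read under TMM scaling, and the difference between the 2 kinds of gene was not itself tested. Without Mcu-/- untreated replicate 4, which narrows the spread shared by all groups, 44 nuclear members were higher and 16 lower, beside 37.2% and 41.3% of all genes. The 2 groups did not overlap for 36 of 93 nuclear members and 5 of 12 mt- rows, beside 69.5% of all genes.

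Cycs, cytochrome c itself, was the nuclear member with the largest rise among those above 10 CPM. It held 61.8, 59.0, 57.7 and 57.8 CPM in WT untreated and 80.5, 77.1, 74.6, 89.5 and 81.9 CPM in WT zymosan libraries, with no overlap between the groups. On the log2 scale the gain was 0.45 ± 0.06 (SE; adjusted p = 9.9e-07 by edgeR's quasi-likelihood test). The exact two-sided permutation test gave 0.00794, the smallest that 4 against 5 libraries allow. Next came Atp5b and Atp5a1, the catalytic pair of the ATP synthase head, at log2 0.36 ± 0.03 and 0.34 ± 0.03, the complex IV subunit Cox5a at 0.34 ± 0.10 and Uqcrfs1, the Rieske iron-sulfur protein of complex III, at 0.30 ± 0.06 (edgeR adjusted p = 2.1e-08, 3e-08, 0.0048 and 0.00037). With library totals 0 nuclear members were higher, so neither Cycs nor any of these genes was called higher there.

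The largest falls among members above 10 CPM were in complex I assembly factors. Ndufaf4 held 18.5 to 19.7 CPM in WT untreated and 10.3 to 12.9 CPM in WT zymosan libraries, and its log2 fold change was -0.73 ± 0.09 (edgeR adjusted p = 8.1e-07). Ndufaf7, a methyltransferase that acts on complex I during assembly, changed by -0.70 ± 0.09 (adjusted p = 9.1e-07). Both groups of Ndufaf4 values were separate, and the fall was larger than the spread between libraries. Smaller falls were seen for Sdhaf2, the factor that attaches FAD to the succinate dehydrogenase flavoprotein (-0.25 ± 0.06), for Sdhb, the iron-sulfur subunit of complex II (-0.14 ± 0.05), and for Ndufa8 (-0.11 ± 0.04), with adjusted p of 0.0012, 0.012 and 0.036. The complex II subunits did not move together, since Sdha (0.11 ± 0.04) and the membrane anchor Sdhc (0.22 ± 0.04) were higher (adjusted p = 0.011 and 4.3e-05) and Sdhd, at 0.08 ± 0.05, did not pass (adjusted p = 0.13).

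The mt- rows were not called in WT after zymosan with all libraries in the fit. Of the 12 rows 0 passed, beside 32.4% of all genes higher and 36.8% lower, and 0 had an unadjusted p under 0.05. Their median log2 change was 0.23. Without Mcu-/- untreated replicate 4, 7 of 12 were higher and 0 lower, beside 37.2% of all genes higher and 41.3% lower. They were the 7 with high counts (mt-Cytb 0.27, edgeR adjusted p = 1.34e-05, and mt-Nd5 0.19, adjusted p = 0.00375). mt-Cytb held 1095, 945, 906 and 1078 CPM in WT untreated and 1169, 1148, 1130, 1354 and 1279 CPM in WT zymosan libraries. With library totals the direction turned, with a median of -0.26 and 2 rows lower.

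In Mcu-/- BMDMs zymosan left the nuclear members divided, with 23 higher and 20 lower beside 34.3% and 39.4% of all genes, and a median log2 change of 0.02. Without replicate 4 there were 24 higher and 31 lower, beside 39.2% and 42.4% of all genes. The groups did not overlap for 36 of 93 nuclear members and 0 of 12 mt- rows, beside 61.7% of all genes. With DESeq2 size factors 34 were higher and 16 lower, and with library totals 0 were higher and 89 lower. Cycs held 62.2, 65.0, 59.2 and 69.1 CPM in untreated and 86.5, 93.5 and 94.5 CPM in zymosan Mcu-/- libraries, a log2 change of 0.52 ± 0.06 (edgeR adjusted p = 7.9e-07) that was close to the 0.45 of WT. The test of the difference between the 2 responses of Cycs gave 0.07 ± 0.09 (adjusted p = 0.56). Atp5a1 also rose in Mcu-/- BMDMs (0.32 ± 0.04, adjusted p = 3.9e-07), as did the complex I subunits Ndufa2 (0.37 ± 0.05) and Ndufa12 (0.33 ± 0.07), with adjusted p of 1.4e-06 and 0.00029.

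Ndufaf4 fell by 1.08 ± 0.11 on the log2 scale and Ndufaf7 by 0.61 ± 0.10 in Mcu-/- BMDMs (edgeR adjusted p = 5.3e-08 and 3.4e-05). Ndufs8, an iron-sulfur subunit of complex I, fell by 0.81 ± 0.13 and Ndufv3 by 0.58 ± 0.08 (adjusted p = 2.3e-05 and 4.6e-06), and Sdhaf2 by 0.46 ± 0.07 (adjusted p = 1.3e-05). Ndufs8 held 52.8, 55.1, 51.7 and 30.1 CPM in the untreated and 27.5, 26.4 and 27.5 CPM in the zymosan libraries of this genotype. Replicate 4, at 30.1 CPM, lay beside the zymosan libraries in Ndufs8 although its Acod1, the itaconate-producing enzyme, was at 74.5 CPM against 6161 to 6480 CPM with zymosan.

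The mt- rows were lower in Mcu-/- zymosan than in Mcu-/- untreated libraries, with 7 of 12 called and 0 higher, beside 39.4% of all genes lower. Without replicate 4 there were 9 and 0, beside 42.4% lower, with the uncertain mt-Co2 and mt-Atp6 added to the 7 rows with high counts. mt-Cytb held 941, 1004, 1056 and 276 CPM untreated and 358, 340 and 429 CPM with zymosan, so that replicate 4 was below the 3 zymosan libraries. Its log2 change was -1.13 with replicate 4 and -1.41 without. For all 12 rows tested, the Mcu-/- zymosan mean lay above replicate 4, by a median of 0.36 on the log2(CPM + 1) scale, and for 11 of 12 it lay below the mean of replicates 1 to 3. When only the 2 Mcu-/- groups were fitted, 0 of 12 mt- rows passed and 2 had an unadjusted p under 0.05.

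The comparison of the 2 genotypes under zymosan gave the largest differences of the mt- rows. Of 12 rows, 9 were lower in Mcu-/- zymosan than in WT zymosan libraries and 0 were higher, beside 30.3% of all genes lower and 31.8% higher, and the same numbers were called without replicate 4, beside 33.7% lower and 36.4% higher. The 9 were the 7 rows with high counts and the uncertain mt-Co2 (-0.75) and mt-Atp6 (-0.47). The groups did not overlap for 8 of 12 mt- rows (the 7 and mt-Co2) and 53 of 93 nuclear members, beside 64.0% of all genes. mt-Cytb held 358, 340 and 429 CPM in Mcu-/- zymosan against 1130 to 1354 CPM in WT zymosan libraries, or 30.9% of the WT level, and the fitted difference was -1.69 ± 0.28 in log2 (SE, adjusted p = 4.8e-05 by edgeR). The exact two-sided permutation test gave 0.0179, the smallest that 3 against 5 libraries allow. mt-Co1, with 4049, 3820 and 4823 CPM against 8058 to 9572 CPM, stood at 49.0% of WT (-1.03 ± 0.19, adjusted p = 0.000125). Neither gene overlapped between the groups. The direction held under library totals, where the median over the mt- rows was -1.01.

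Among the mt- rows with high counts, the size of the difference followed the order of the genes along the mitochondrial genome. Going from mt-Nd1 along the strand that carries most genes, Mcu-/- zymosan levels were 53.3% of WT zymosan for mt-Nd1, 50.01% for mt-Nd2, 49.0% for mt-Co1, 40.0% for mt-Nd4, 35.6% for mt-Nd5 and 30.9% for mt-Cytb, whose start lies 11.4 kb from that of mt-Nd1 (chrM, mm10). mt-Nd6, on the opposite strand, was at 37.2%. The uncertain rows that lie between mt-Co1 and mt-Nd4 broke the order. They stood at 59.2% for mt-Co2, 63.0% for mt-Atp8, 72.4% for mt-Atp6, 95.1% for mt-Co3 and 191% for mt-Nd3. The order is a description over 6 rows of 1 molecule, which share libraries and transcripts, and no test was made of it. The ratio of mt-Cytb to mt-Nd1 CPM, which is free of any scaling between libraries, was 0.769 to 0.789 in WT untreated, 0.754 to 0.786 in WT zymosan and 0.711 to 0.717 in BAPTA-AM loaded libraries. It was 0.762 to 0.775 in Mcu-/- untreated replicates 1 to 3, 0.452 in replicate 4 and 0.430 to 0.466 in Mcu-/- zymosan libraries. The last 4 libraries thus lay apart from the other 16 in the balance among mt- rows as well as in their sum.

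**Figure D2:**
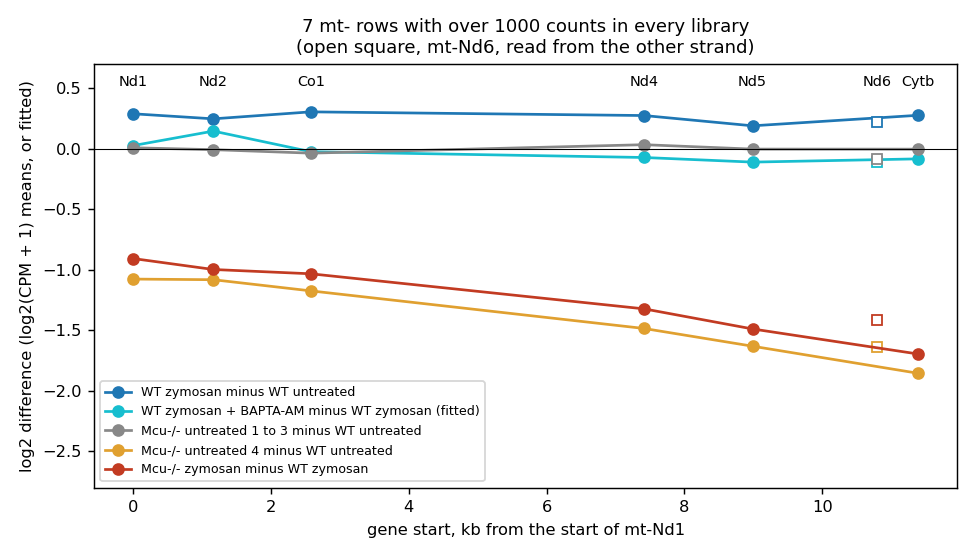
Log2 differences (y axis) of the 7 mt- rows with over 1000 counts in every library, by distance of the gene's start from that of mt-Nd1 in kb (x axis). Mcu-/- zymosan minus WT zymosan runs from -0.91 at mt-Nd1 to -1.70 at mt-Cytb and Mcu-/- untreated replicate 4 minus WT untreated from -1.08 to -1.85, while the other 3 lines stay between -0.11 and 0.30; open squares are mt-Nd6.

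Mcu-/- untreated replicate 4 carried the same pattern without zymosan. Against the WT untreated mean it stood at 47.2% for mt-Nd1, 44.1% for mt-Co1 and 27.5% for mt-Cytb, whereas replicates 1 to 3 differed from WT untreated by -0.01, on the log2(CPM + 1) scale, for the median mt- row. Their Mcu level (2.63, 2.85 and 3.77 CPM) was as low as that of replicate 4 (4.05 CPM) and of the Mcu-/- zymosan libraries (3.62 to 3.98 CPM). A low Mcu level thus occurred both with and without the low mt- rows. Between Mcu-/- and WT zymosan libraries, genotype cannot be told apart from whatever else set replicate 4 and the 3 Mcu-/- zymosan libraries apart, including the markers given above. Beside the mt- rows, Cd68 was 1.91 and Col1a1 3.41 higher on the log2 scale in Mcu-/- zymosan libraries and Itgam -1.66 and Lyz2 -1.34 lower (edgeR adjusted p = 4.3e-05, 0.00042, 1.7e-05 and 5.6e-05), and their part in the result was not tested.

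The nuclear members were mostly lower in Mcu-/- than in WT zymosan libraries, with 12 higher and 43 lower beside 31.8% and 30.3% of all genes (13 and 47 without replicate 4, beside 36.4% and 33.7%) and a median log2 difference of -0.12 against 0.02 for all genes. The 55 called were a smaller share of the 93 than the called share of all genes. Falls were called in every complex. Of complex V subunits 0 were higher and 10 of 16 lower, of complex IV 1 higher and 9 of 15 lower, of complex I 5 higher and 16 of 36 lower, of complex III 3 of 9 each way, and of complex II 0 higher and 2 of 4 lower. With library totals 8 were higher and 49 lower, so the direction held.

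**Figure D3:**
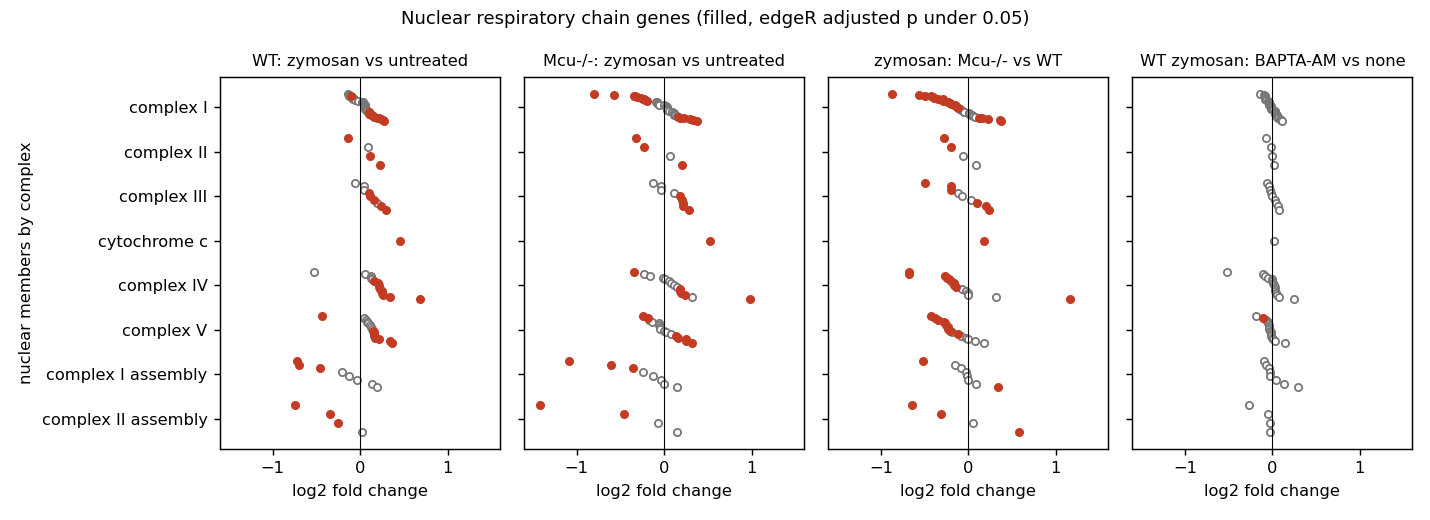
Log2 fold changes (x axis) of the 93 nuclear members tested, by complex (y axis), in 4 comparisons under TMM scaling; each point is 1 gene and filled points had an edgeR adjusted p under 0.05. Most filled points lie right of 0 for WT zymosan (32 higher, 9 lower), left of 0 for Mcu-/- against WT under zymosan (12 higher, 43 lower), and 1 point is filled for BAPTA-AM.

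Ndufs8 showed the largest fall among nuclear members above 10 CPM, with 27.5, 26.4 and 27.5 CPM in Mcu-/- zymosan against 51.5, 50.8, 49.4, 49.6 and 48.0 CPM in WT zymosan libraries. The groups did not overlap, and the log2 difference was -0.88 ± 0.13 (edgeR adjusted p = 1.6e-05). Cox5a, the complex IV subunit next in size, held 151, 165 and 146 CPM against 238 to 264 CPM (-0.68 ± 0.11, adjusted p = 3.9e-05). Cox7a2l, known for a protein that can join complexes III and IV in supercomplexes, held 93.02, 99.1 and 93.8 CPM against 148 to 159 CPM. Its log2 difference was -0.68 ± 0.08 (edgeR adjusted p = 2e-06). Ndufv3, in the NADH-binding arm of complex I, and Ndufaf4 followed at -0.57 ± 0.08 and -0.52 ± 0.11 (adjusted p = 1.1e-05 and 0.0004). In all 5 genes replicate 4 of the untreated Mcu-/- group lay below the other 3 libraries of its group. It held 126 CPM of Cox5a against 193 to 211 CPM, 92.6 CPM of Cox7a2l against 129 to 132 CPM, 13.6 CPM of Ndufaf4 against 18.1 to 18.8 CPM and 41.3 CPM of Ndufv3 against 55.7 to 57.9 CPM.

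The largest rise was in Cox6a2, the complex IV isoform known from heart and skeletal muscle. It held 11.6, 12.6 and 10.8 CPM in Mcu-/- zymosan and 4.45 to 6.15 CPM in WT zymosan libraries (log2 1.16 ± 0.27, edgeR adjusted p = 0.0013). It held 11.5 CPM in Mcu-/- untreated replicate 4 and 3.45 to 4.42 CPM in the other 3 untreated libraries of that genotype, so that it was high in the same 4 libraries in which the mt- rows were low. The complex I subunits Ndufs7 and Ndufa12 were higher by 0.37 each (± 0.07 and ± 0.07, adjusted p = 0.00012 for both), the assembly factor Ndufaf3 by 0.34 ± 0.12 (adjusted p = 0.016) and Cyc1, the haem-bearing subunit of complex III, by 0.24 ± 0.05 (adjusted p = 0.00043). Cycs, which shuttles electrons between complexes III and IV, was higher by 0.18 ± 0.06 (adjusted p = 0.016). Library totals brought Cycs to 0.13 with an adjusted p of 0.053.

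**Figure D4:**
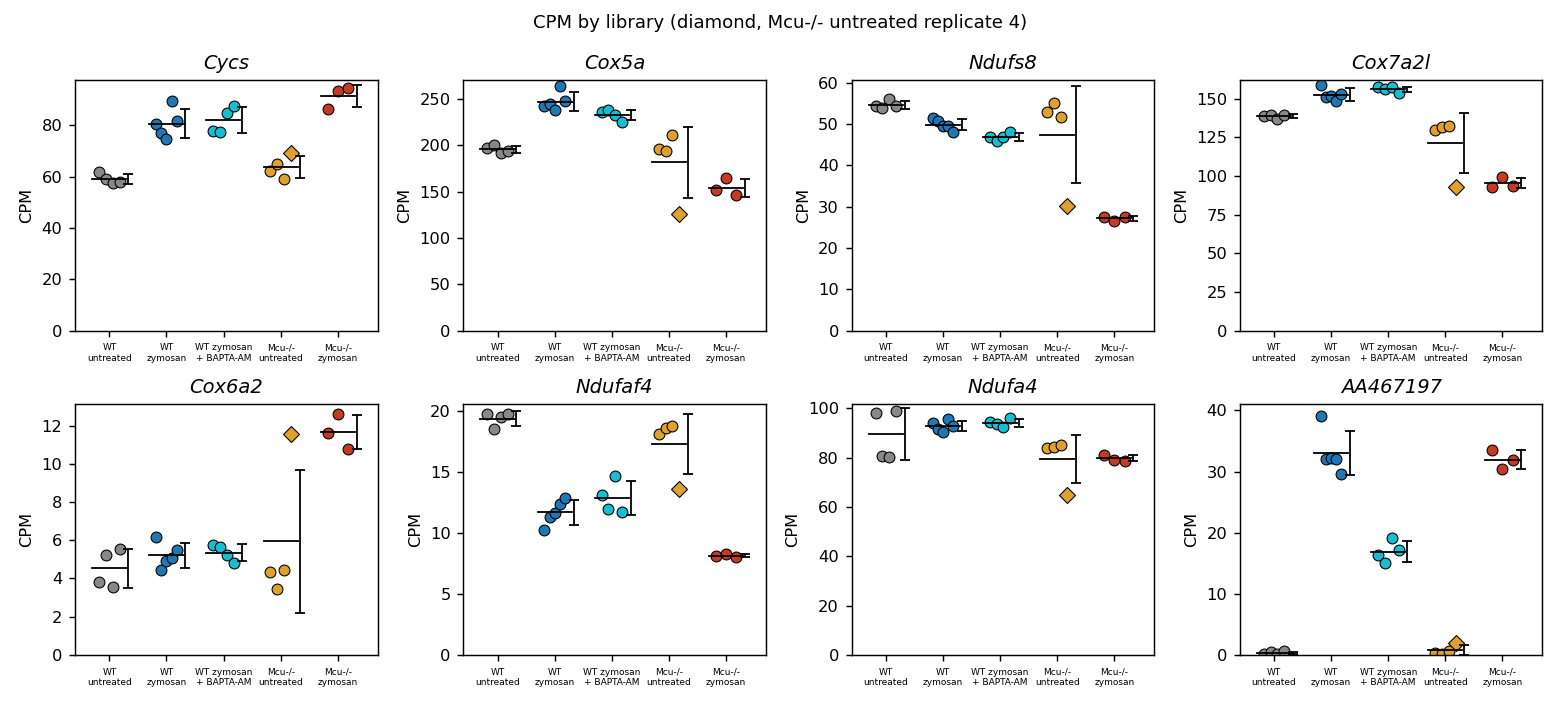
CPM (y axis) of 8 genes in each library by group (x axis); points are libraries, lines are means, bars are 1 SD and the diamond is Mcu-/- untreated replicate 4. For Ndufs8 (30.1 CPM), Cox7a2l (92.6 CPM) and Cox6a2 (11.5 CPM) the diamond sits with the Mcu-/- zymosan libraries, and AA467197 is near 0 in untreated and at 14.95 CPM or more in zymosan libraries.

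Replicate 4 and the Mcu-/- zymosan libraries could be compared gene by gene, because the differences to their own WT groups share no library. Of the 55 nuclear members called between Mcu-/- and WT zymosan libraries, 53 had the same sign in replicate 4 minus the WT untreated mean, or 96.4%, beside 86.7% of all genes called in that comparison (6306 of 7272). For Mcu-/- untreated replicates 1, 2 and 3 the same count was 32, 32 and 31 of 55 (58.2%, 58.2% and 56.4%), beside 50.8%, 49.8% and 50.9% of all genes called. The median nuclear member was -0.19 in replicate 4 and -0.12 in the Mcu-/- zymosan mean, each against its WT group on the log2(CPM + 1) scale.

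**Figure D5:**
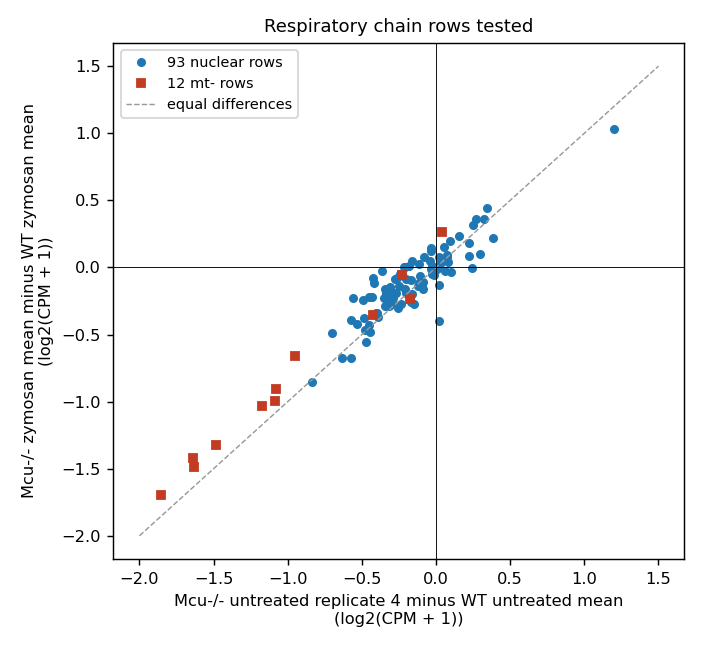
For the 93 nuclear and 12 mt- members tested, the difference of Mcu-/- untreated replicate 4 from the WT untreated mean (x axis) against that of the Mcu-/- zymosan mean from the WT zymosan mean (y axis), both in log2(CPM + 1). Circles are nuclear and squares mt- rows; most lie near the dashed line of equal differences, from mt-Cytb at -1.85 and -1.70 to Cox6a2 at 1.20 and 1.03.

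The response to zymosan differed between the genotypes for 13 nuclear members, beside 35.2% of all genes, and for 7 of 12 mt- rows. Of the nuclear members 2 had a higher and 11 a lower log2 change in Mcu-/- than in WT BMDMs, and all 7 mt- rows had a lower one. Without replicate 4 there were 45 nuclear members (6 and 39) and 8 mt- rows, mt-Co2 being the 8th, beside 60.3% of all genes. The 7 mt- rows were those with high counts, from mt-Nd1 (-0.71, edgeR adjusted p = 0.028) to mt-Cytb (-1.40, adjusted p = 0.0066). Among nuclear members the largest differences were in Ndufs8 (-0.67 ± 0.17), Cox5a (-0.57 ± 0.15), Cox7a2l (-0.49 ± 0.11), Ndufv3 (-0.44 ± 0.11) and Ndufb11 (-0.41 ± 0.12), with adjusted p of 0.0059, 0.0064, 0.0028, 0.005 and 0.013. Cox5a thus went from 192 to 200 CPM up to 238 to 264 CPM in WT, and from 193 to 211 CPM in Mcu-/- untreated replicates 1 to 3 down to 146 to 165 CPM in Mcu-/- zymosan libraries, which lay above the 126 CPM of replicate 4. Ndufa12 (0.28 ± 0.09) and Cyc1 (0.18 ± 0.07) had the higher change in Mcu-/- BMDMs (adjusted p = 0.022 and 0.047). These tests use the Mcu-/- zymosan libraries and carry the same limit as the comparison between genotypes.

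Between untreated Mcu-/- and untreated WT BMDMs, 0 of 93 nuclear and 0 of 12 mt- members were called, beside 0.128% of all genes higher and 0.222% lower. By edgeR, 11 nuclear and 0 mt- rows had an unadjusted p under 0.05, and DESeq2 also called 0 of each. Without replicate 4 the counts stayed at 0 and 0, beside 1.53% of all genes higher and 1.83% lower, the median nuclear log2 difference was -0.00 and the median mt- difference -0.01. Cox6a2 (0.39 ± 0.28) and Cox7a2l (-0.19 ± 0.08) had differences that replicate 4 carried, and neither passed (edgeR adjusted p = 0.48 and 0.28). The groups did not overlap for 4 of 93 nuclear members and 0 of 12 mt- rows, beside 7.09% of all genes.

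Few chain genes were called between BAPTA-AM loaded and other WT zymosan libraries. Of 93 nuclear members 0 were higher and 1 was lower, beside 6.43% of all genes higher and 6.33% lower, and of 12 mt- rows 0 were called and 0 had an unadjusted p under 0.05. The called member was Atp5a1, the alpha subunit of the ATP synthase head, with 624, 641, 614 and 610 CPM under BAPTA-AM against 665, 674, 680, 665 and 680 CPM without (log2 -0.11 ± 0.03, edgeR adjusted p = 0.03). The groups did not overlap, although the difference was small and library totals ended the call (-0.05, adjusted p = 0.4). Without Mcu-/- untreated replicate 4, 2 nuclear members were higher and 3 lower and 1 mt- row, mt-Nd2, was higher (0.14, adjusted p = 0.037), beside 15.3% of all genes higher and 16.5% lower. The groups did not overlap for 6 of 93 nuclear members and 0 of 12 mt- rows, beside 24.3% of all genes. The mt-Nd5 to mt-Nd1 ratio was 0.633 to 0.682 under BAPTA-AM and 0.696 to 0.752 in WT zymosan libraries, without overlap, and the mt-Nd2 to mt-Nd1 ratio was 0.448 to 0.453 against 0.405 to 0.419.

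Among the isoforms that replace one another in complex IV, the general kind made up most of each pair. Per length, WT untreated libraries held 187 CPM per kb of Cox4i1 and 0.852 of its partner Cox4i2, known from lung and low oxygen. They held 63.8 CPM per kb of Cox7a2 and 1.34 of the muscle isoform Cox7a1, which stood at 0.639 to 0.897 CPM untreated and at 0.816 to 1.48 CPM after zymosan in WT (log2 0.68 ± 0.22, edgeR adjusted p = 0.012). Cox6a1 was at 197 and Cox6a2 at 6.66 CPM per kb in WT untreated, and at 209 and 17.2 CPM per kb in Mcu-/- zymosan libraries, so that even there the muscle isoform was the minor one. Of the 3 genes for the same c-ring subunit of complex V, Atp5g3 was higher after zymosan in WT (0.15 ± 0.06, adjusted p = 0.047), while Atp5g1 (0.04 ± 0.04) and Atp5g2 (0.07 ± 0.05) did not pass (adjusted p = 0.41 and 0.23). Cox4i1, Cox6a1, Cox6b1 and Cox8a rose in WT by 0.21, 0.25, 0.23 and 0.26 (adjusted p = 0.0051, 4.4e-05, 0.0034 and 6.1e-07), while Cox7a2 at 0.12 and Cox7b at 0.13 did not pass (adjusted p = 0.069 and 0.19).

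Ndufa4, a subunit of complex IV despite its name, and AA467197, which encodes a small protein known to take its place in inflamed cells, behaved differently. AA467197 held 0.171 to 0.561 CPM in WT untreated libraries and 39.1, 32.0, 32.1, 32.1 and 29.5 CPM in WT zymosan libraries (log2 6.62 ± 0.38, edgeR adjusted p = 1.2e-11). It held 30.5 to 33.6 CPM in Mcu-/- zymosan libraries, not called against WT zymosan (-0.05 ± 0.25, adjusted p = 0.89). Under BAPTA-AM it reached 16.3, 14.95, 19.1 and 17.1 CPM, below every WT zymosan library (-0.97 ± 0.24, adjusted p = 0.011, 0.072 by DESeq2). Ndufa4 held 80.05 to 98.8 CPM untreated and 90.5 to 95.5 CPM after zymosan in WT (0.06 ± 0.07, adjusted p = 0.52) and 78.7 to 81.0 CPM in Mcu-/- zymosan libraries (-0.22 ± 0.08 against WT zymosan, adjusted p = 0.024).

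Of the 7 tested genes in the list of chain inhibitors and exchange partners, 5 were higher and 0 lower after zymosan in WT, beside 32.4% and 36.8% of all genes, and 6 higher and 1 lower in Mcu-/- BMDMs, beside 34.3% and 39.4%. Nos2, which makes the complex IV inhibitor nitric oxide, and Acod1 had the largest log2 changes, 10.24 ± 0.37 and 8.17 ± 0.33 in WT (edgeR adjusted p = 7.2e-15 and 5.7e-14). Acod1 went from 17.1 to 21.6 CPM up to 5508 to 5980 CPM in WT, and the BAPTA-AM libraries held 5319 to 5555 CPM (-0.08 ± 0.23, adjusted p = 0.89). Higd1a, a small protein of complex IV, rose by 0.31 ± 0.08 in WT (adjusted p = 0.002) and was 0.31 ± 0.08 higher again under BAPTA-AM (adjusted p = 0.015). Atpif1, the inhibitor of the ATP synthase, was lower in Mcu-/- than in WT zymosan libraries (-0.70 ± 0.12, adjusted p = 9.7e-05).

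Of 40 tested assembly genes and other chain genes outside the naming rule, 5 were higher and 18 lower after zymosan in WT, beside 32.4% and 36.8% of all genes, with a median log2 change of -0.16 against -0.04 for all genes. Tmem126b, a complex I assembly factor, fell by 2.22 ± 0.14, Coa4 by 1.54 ± 0.08 and Atpaf1, which assists the ATP synthase head, by 1.01 ± 0.08 (edgeR adjusted p = 3.7e-11, 4.5e-12 and 7e-10), whereas Cox18, which inserts a mitochondrially made subunit, rose by 1.16 ± 0.09, Tmem70 by 1.11 ± 0.05 and the copper chaperone Cox17 by 0.67 ± 0.06 (adjusted p = 7.8e-10, 5.9e-13 and 1e-08). In Mcu-/- BMDMs 6 were higher and 20 lower, beside 34.3% and 39.4% of all genes. Between genotypes under zymosan 6 were higher and 7 lower, both below the background of 31.8% and 30.3%, among them Tmem70 (-0.62 ± 0.06) and the copper chaperone Sco1 (0.57 ± 0.11), with adjusted p of 7.6e-08 and 0.0002.

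The genes that copy and transcribe mitochondrial DNA were mostly lower after zymosan, in WT (1 of 17 higher, 11 lower, median log2 change -0.65) and in Mcu-/- BMDMs (2 higher, 12 lower, median -0.82). Over all genes 32.4% were higher and 36.8% lower in WT, and 34.3% and 39.4% in Mcu-/- BMDMs. Polrmt, the mitochondrial RNA polymerase, held 16.8 to 18.0 CPM in WT untreated and 5.54 to 7.29 CPM in WT zymosan libraries, with no overlap (-1.37 ± 0.09, edgeR adjusted p = 1.1e-10), and changed by -1.20 ± 0.11 in Mcu-/- BMDMs (adjusted p = 1e-08). The nuclease Mgme1 fell by 1.19 ± 0.12 and the DNA polymerase Polg by 0.71 ± 0.11 in WT (adjusted p = 6.6e-08 and 6.7e-06), and Rnaseh1 rose by 0.21 ± 0.07 (adjusted p = 0.0089). Tfam, which packages mitochondrial DNA and starts its transcription, was not called in WT (-0.13 ± 0.08, adjusted p = 0.17). Between genotypes under zymosan, where the mt- rows differed most, Polrmt (0.10 ± 0.11) and Tfam (0.11 ± 0.09) were not called (adjusted p = 0.45 and 0.32). Of the 17 genes 2 were higher (Rnaseh1 0.38 ± 0.07, adjusted p = 0.00017) and 2 lower (Tfb2m -0.36 ± 0.12, adjusted p = 0.016), both below the background of 31.8% and 30.3%. In replicate 4 Polrmt was at 17.7 CPM, against 15.7 to 16.7 CPM in the other untreated Mcu-/- libraries. Other genes of the list, chosen after their values were seen, stood apart in that library. Polg was at 42.8 CPM against 68.2 to 74.2 CPM, Polg2 at 4.29 against 7.501 to 8.216 CPM and Primpol at 7.38 against 11.9 to 12.6 CPM, all lower, while Tfam, at 28.8 against 21.7 to 22.1 CPM, and Mgme1, at 19.2 against 12.8 to 14.2 CPM, were higher.

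Among 18 genes that process or stabilise mitochondrial RNA, 4 were higher and 7 lower after zymosan in WT, beside 32.4% and 36.8% of all genes, so that the share lower was near the background. Pnpt1, a subunit of the degradosome, rose by 1.37 ± 0.09 and its helicase partner Supv3l1 by 0.57 ± 0.07, while Fastkd3 fell by 1.24 ± 0.07 and Trmt10c, part of the complex that cuts out tRNAs, by 0.92 ± 0.09 (edgeR adjusted p = 9.9e-11, 3.3e-07, 2.9e-12 and 3.5e-08). Between Mcu-/- and WT zymosan libraries 7 were higher and 5 lower, beside 31.8% and 30.3% of all genes, with Grsf1, an RNA granule protein, 0.56 ± 0.09 and Slirp, a messenger-stabilising protein, 0.31 ± 0.07 higher, and the exonuclease Rexo2 -0.35 ± 0.06 (adjusted p = 6e-05, 0.00054 and 0.00014). Under BAPTA-AM 3 were higher and 0 lower, beside 6.43% and 6.33% of all genes.

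Of 12 transcriptional regulators of the chain tested, 7 were higher and 4 lower after zymosan in WT, and 5 each way in Mcu-/- BMDMs. Of all genes 32.4% were higher and 36.8% lower in WT, and 34.3% and 39.4% in Mcu-/- BMDMs, so that all of these counts but the 7 of 12 higher in WT lay near the background. The coactivator Ppargc1b held 4.21 to 5.99 CPM untreated and 22.3 to 29.8 CPM with zymosan in WT (2.37 ± 0.17, edgeR adjusted p = 2.8e-10) and rose by 2.50 ± 0.18 in Mcu-/- BMDMs (adjusted p = 5.9e-10). Ppargc1a, its relative, was at no more than 0.107 CPM in any library and was not tested. Pprc1, the third coactivator of that family, showed opposite changes. It held 84.8, 91.4, 85.0 and 85.7 CPM untreated and 129 to 136 CPM with zymosan in WT (0.61 ± 0.04), but 79.6, 81.7, 83.1 and 71.7 CPM untreated and 69.8, 66.7 and 68.5 CPM with zymosan in Mcu-/- BMDMs (-0.21 ± 0.05). The difference between the 2 responses of Pprc1 was -0.82 ± 0.06 (adjusted p = 2.4e-08). Pprc1 was 71.7 CPM in replicate 4, below the other 3 untreated libraries.

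The promoters of nuclear members were searched for 4 motifs known from respiratory chain promoters. Promoter entries (250 bases before to 50 after the start, RefSeq, GRCm38.p6) matched 81 of the 98 nuclear members, 2 of them through a synonym. The NRF1 motif, whose 10 letters are those in capitals in the Ndufaf4 window shown with these shares, read on both strands, was found in 7 of 81 (8.64%), against 1.07% of all promoters and 2.47% of those of tested genes. AAGATGGCG (YY1) was in 9.88% against 1.64% and 3.75%, CCGGAAG (ETS family) in 25.9% against 9.93% and 21.0%, and CACGTG (E-box) in 7.41% against 8.09% and 11.97%. No test was made of these shares. The 120 bases before the start are shown for Cycs, Ndufaf4 and Ndufs8, with matches to the 4 motifs in capitals. Among members above 10 CPM, Cycs rose and Ndufaf4 fell most in WT. Ndufs8 was the lowest in Mcu-/- against WT zymosan libraries.
Cycs, chr6:50566570-50566689, minus strand: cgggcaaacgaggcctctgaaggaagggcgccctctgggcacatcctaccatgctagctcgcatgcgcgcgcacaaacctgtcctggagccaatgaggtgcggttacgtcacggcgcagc
Ndufaf4, chr4:24897963-24898082, plus strand: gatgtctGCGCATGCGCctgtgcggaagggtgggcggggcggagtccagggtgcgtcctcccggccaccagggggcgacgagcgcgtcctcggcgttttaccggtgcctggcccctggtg
Ndufs8, chr19:3912775-3912894, minus strand: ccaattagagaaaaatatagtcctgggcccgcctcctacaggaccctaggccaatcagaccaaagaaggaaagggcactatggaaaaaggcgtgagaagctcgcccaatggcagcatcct
Of these windows that of Ndufaf4, which fell with zymosan in both genotypes, held the NRF1 motif in full, and those of Cycs and Ndufs8 held none of the 4 as spelled. The longer promoter entry of Ndufs8, over which the shares were counted, held the ETS family motif outside the 120 bases shown. That of Cycs held none as spelled. Only exact matches were searched, and the Cycs window shown holds a stretch that matches the NRF1 motif in all but its first base.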

How the data were processed

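Per the labels and the study's methods, the authors trimmed reads with cutadapt, aligned them to mm10 with STAR, counted reads per gene with HTSeq and tested with DESeq2. The library kit, its strand and the annotation are not given in the sources used here. The deposited table holds raw counts per gene. The columns of the Mcu-/- zymosan group are numbered 3 to 5 and were mapped to the group only.

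Counts of all 20 libraries were fitted with edgeR 4.0.16 (R 4.3.3) after filterByExpr and TMM scaling, with quasi-likelihood tests of 6 comparisons and Benjamini-Hochberg adjustment over all genes tested (threshold 0.05). Exact two-sided permutation tests and single libraries used log2(CPM + 1). Alternatives were other scalings, filters, DESeq2 1.42.0, subsets of groups and leaving out each library. Genes named were all mt- rows, the 5 largest called rises and falls at a mean of at least 10 CPM per comparison, isoform sets, complex II subunits, Cyc1 and Cycs, and the 3 largest rises and falls per list, with Mcu and 8 further genes (AA467197, Acod1, Higd1a, Tfam, Polrmt, Ppargc1a, Ppargc1b and Pprc1) whatever their values; Cd68, Itgam, Lyz2, Col1a1 and Col1a2 were added after their values were seen. Members and lists were chosen with earlier results of these data known. In simulated data of the zymosan comparison between genotypes (11463 genes), edgeR recovered 83 of 100 genes changed by 1 on the log2 scale and 21 of 100 changed by 0.3, with 5 false calls. Nuclear copies were found with blastn 2.17.0 against GENCODE M21 transcripts (e-value 1e-05).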

Additional observations from a re-analysis of the deposited data

Results flagged for a closer look

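In 96 groups of 4 or 5 libraries, 13 had 1 library far from the others, by a rule that flags about 1 in 20 by chance. The genes checked were chosen with earlier results of these data known, and many of the values move together. The 13 are therefore a description and no test against chance. Mcu-/- untreated replicate 4 was the library set apart in 10 of the 13. Its nuclear share of counts was 0.703% (others 0.858% to 0.864%), its mt-Cytb to mt-Nd1 ratio 0.452 (0.762 to 0.775), its mt-Nd6 60.4 CPM (173 to 190 CPM) and its mt-Cytb 276 CPM (941 to 1056 CPM). It held 11.5 CPM of Cox6a2 (3.45 to 4.42 CPM), 30.1 CPM of Ndufs8 (51.7 to 55.1 CPM), 92.6 CPM of Cox7a2l (129 to 132 CPM), 13.6 CPM of Ndufaf4 (18.1 to 18.8 CPM), 64.6 CPM of Ndufa4 (83.8 to 85.0 CPM) and 74.5 CPM of Acod1 (24.1 to 25.7 CPM). In BAPTA-AM loaded replicate 2 the mt- share was 1.16% (1.28% to 1.30% in the others) and mt-Co1 was at 7818 CPM (8615 to 8769 CPM). AA467197 was at 39.1 CPM in WT zymosan replicate 1 and at 29.5 to 32.1 CPM in the other 4 libraries.

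The response to zymosan differed between genotypes for 20 members by edgeR's test of the interaction (values in log2, Mcu-/- minus WT). Among mt- rows the differences were -0.71 for mt-Nd1, -0.78 for mt-Nd2, -0.78 for mt-Co1, -1.09 for mt-Nd4, -1.21 for mt-Nd5, -1.07 for mt-Nd6 and -1.40 for mt-Cytb, and without Mcu-/- untreated replicate 4 they ran from -0.91 to -1.68. In complex I they were -0.67 for Ndufs8, -0.44 for Ndufv3, -0.41 for Ndufb11 and 0.28 for Ndufa12, and in complex II -0.31 for Sdhd and -0.19 for Sdhb. In complexes III and IV they were 0.18 for Cyc1, -0.57 for Cox5a and -0.49 for Cox7a2l. In complex V they were -0.37 for Atp5o, -0.30 for Atp5j2, -0.26 for Atp5c1 and -0.24 for Atp5f1. Each of the 20 kept its sign and its call without that library, and each differs further from 0 there. The 3 Mcu-/- zymosan libraries that carry these differences are those whose macrophage and fibroblast markers stood apart from WT, and the part of those markers in the differences was not tested.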

How the results depend on the processing

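Scaling by library totals turned the nuclear members lower after zymosan, with 89 called in WT and 89 in Mcu-/- BMDMs, gave 2 mt- rows called (both lower) in WT and 1 nuclear member (higher) under BAPTA-AM. It turned the direction of 23 of 192 single-gene results that were still called, and no other alternative did so for any. In WT these were Atp5b (-0.13), Atp5a1 (-0.15), Uqcrfs1 (-0.20), Rnaseh1 (-0.28), Rexo2 (-0.22), Cox4i1 (-0.28), Cox6a1 (-0.25), Cox6b1 (-0.27), Cox8a (-0.24), Atp5g3 (-0.35), Sdha (-0.38), Sdhc (-0.27), Cyc1 (-0.39) and Higd1a (-0.18). In Mcu-/- BMDMs they were Ndufa2 (-0.15), Ndufa12 (-0.19), Atp5a1 (-0.20), Pde12 (-0.23), Cox7a2 (-0.34), Cox8a (-0.33), Atp5g1 (-0.39), Sdhc (-0.32) and Cyc1 (-0.23). Fitting only the groups compared called 27 nuclear members and 0 mt- rows for zymosan in Mcu-/- BMDMs, 7 mt- rows in WT, and 5 nuclear members and 1 mt- row under BAPTA-AM, where fitting genes without a filter on low counts called 0 nuclear members.

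No pairing by replicate number was seen: correlations of deviations from group means between same-numbered libraries ran from -0.117 to 0.083. The check cannot decide this for the Mcu-/- groups. Their untreated mean includes replicate 4, which stood far from its group, and their zymosan column numbers do not match the sample titles. With the replicate number as a block, in the fit of only the groups compared, 0 nuclear members and 0 mt- rows were called for zymosan in Mcu-/- BMDMs, where 2 numbers are shared, 7 mt- rows in WT, 3 nuclear members and 1 mt- row under BAPTA-AM, and 3 nuclear members and 0 mt- rows for the difference between responses.

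Leaving out each library in turn gave 36 to 60 nuclear members called in WT, 36 to 55 in Mcu-/- BMDMs, 43 to 60 between genotypes under zymosan, 0 to 5 under BAPTA-AM and 8 to 45 for the difference between responses, and 0 to 7, 5 to 9, 8 to 10, 0 to 1 and 5 to 8 mt- rows. The highest nuclear counts were all without Mcu-/- untreated replicate 4. In Mcu-/- BMDMs most calls were lower rather than higher without that library (55 called) and without Mcu-/- zymosan replicate 4 (37 called). Between untreated genotypes 0 were called under every alternative.

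Mean shares moved to 1.09% to 1.397% for mt- and 0.807% to 0.861% for nuclear members in Mcu-/- untreated libraries when 1 was left out. The nuclear share was 0.669% in WT zymosan and 0.688% under BAPTA-AM with structural subunits alone, and 0.708% under BAPTA-AM over counts of nuclear genes. The causes of these shifts were not tested. mt-Nd3, mt-Atp8 and mt-Nd4l, with at most 18 counts per library, are limited by depth.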

Other observations

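WT untreated libraries fell into 2 pairs, replicates 1 and 4 and replicates 2 and 3, on average over genes as well as in some members. The squared difference in counts per gene, relative to counting noise, was 2.00 between replicates 1 and 4. It was 1.61 between replicates 2 and 3, and 3.59 to 4.54 for the other pairs. Pairs of WT zymosan libraries ran from 1.96 to 6.58. What set the pairs apart was not tested. Ndufa4 held 98.1, 80.5, 80.05 and 98.8 CPM in replicates 1 to 4 and Uqcrh, the hinge subunit of complex III, 84.7, 74.9, 72.3 and 89.7 CPM, and the mt- share of counts was 1.55%, 1.31%, 1.28% and 1.55% in the same order. No group was formed from these values.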
